A study of Drosophila melanogaster with 4 samples.

Results

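Juvenile hormone is broken down in insects by esterases, which cut its methyl ester to give the hormone acid, and by epoxide hydrolases, which open its epoxide ring to give the hormone diol. The level of the hormone in an insect depends on this breakdown as well as on its synthesis, and in many insects the esterase rises after a dose of hormone. Drosophila melanogaster has the juvenile hormone esterase gene Jhe with its tandem duplicate Jhedup, and the epoxide hydrolase genes Jheh1, Jheh2 and Jheh3, which stand in a row. Members were the probe sets whose only gene symbol in the platform annotation is one of these 5 genes. Of the 5, only Jhedup and Jheh2 had such a probe set, 1 each, among 10843 genes named on the array. Jhe, Jheh1 and Jheh3 were not named alone by any probe set in the annotation used here. For Jheh1 a probe set without a platform symbol could be named in another way, and its values are given below as lying outside the rule.

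Transcript levels were measured in whole adult y, w females of Drosophila melanogaster, flies marked by yellow body colour and white eyes, 12 hours after a drop was placed on the body under cold anaesthesia. In both groups adult flies had 5 days of food with no yeast, from within an hour of emergence, to lower their own hormone. The treated females received 0.1 µl of juvenile hormone III (JH III) at 187 mM in acetone, and the control females received 0.1 µl of acetone alone. There were 2 pools of 30 females per group, each on 1 Affymetrix DrosGenome1 array, and this number limits the precision of every value. In RNA of the whole body, fewer cells of a type and less RNA per cell cannot be told apart. Yolk protein transcripts Yp1, Yp2 and Yp3, made by adult females, were above background in all 4 arrays. Of 10 genes of the male accessory gland and testis, 6 were above background in 0 arrays, SP in 2, and the testis transcripts Mst84Da, Mst84Db and Mst87F in 3 of 4.

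The first JH III replicate was unlike the rest. Its log2 levels correlated with theirs at r = 0.73 to 0.74 over 10475 probe sets, against 0.84 to 0.86 among the other arrays. The chip lot was shared by 3 arrays and differed for acetone replicate 1, so the value within a lot is the value without that array. Both acetone arrays were scanned before both JH III arrays, so scan order and treatment cannot be told apart. The signal of a probe set is a linear intensity that the authors had scaled to a common mean. Background is set at the 95th percentile of the 23 control probe sets to which nothing was spiked, which was 369 and 240 after JH III and 139 and 295 after acetone.

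Jheh2, an epoxide hydrolase that acts on juvenile hormone, had lower signals with the hormone. Its signals were 1655 and 2036 after JH III and 4408 and 3128 after acetone, all well above background. Both JH III arrays lay below both acetone arrays. The means were 1845 ± 270 after JH III and 3768 ± 905 after acetone (SD, n = 2 each), so that the acetone mean was 2.04 times the JH III mean. On the scale log2(signal + 83) the difference, JH III minus acetone, was -0.98 ± 0.35 (SE), with a 95% interval of -1.69 to -0.28. Limma gave it an unadjusted p of 0.00701 and, after Benjamini-Hochberg adjustment across the 10475 probe sets of the fit, an adjusted p of 0.473. Jheh2 therefore did not pass the threshold of 0.05. An exact two-sided permutation test of its log2 levels gave p = 0.333, the smallest p that 2 arrays against 2 allow.

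**Figure D1:**
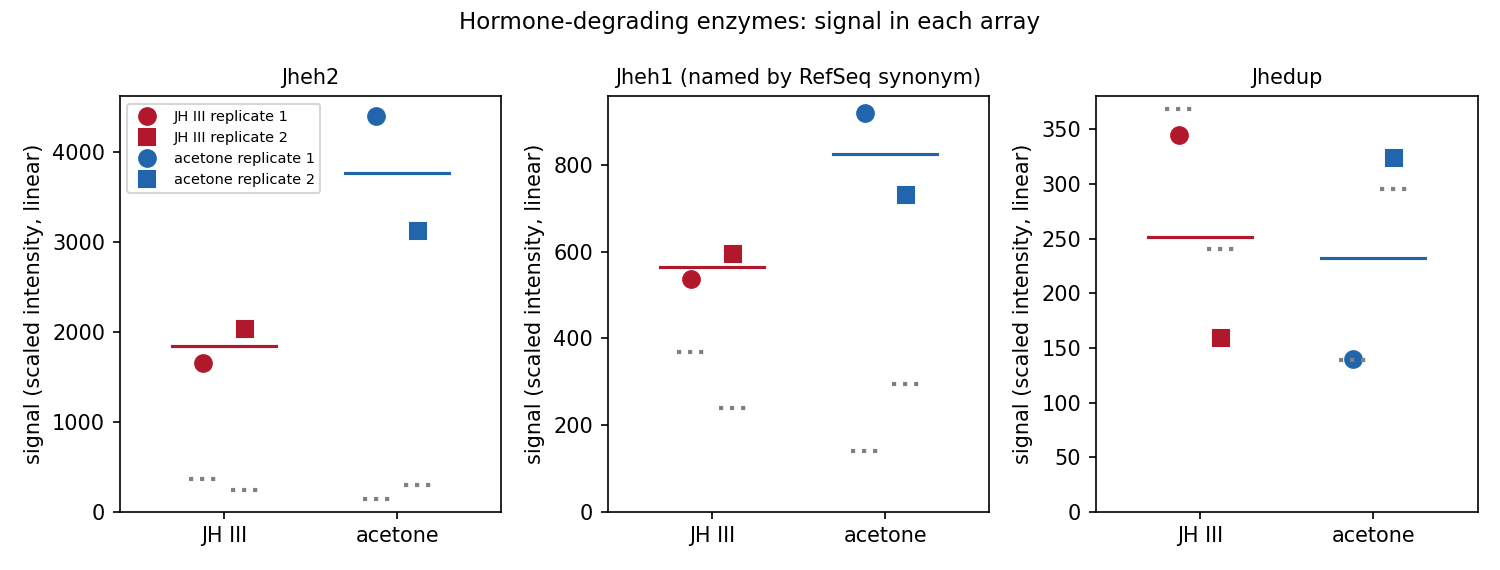
Signal (linear scaled intensity) of the 3 hormone-degrading enzyme probe sets in each array. Points are arrays, horizontal lines are group means and dotted lines are the background level of each array. For Jheh2 and Jheh1 every JH III point lies below every acetone point, and the Jhedup groups overlap.

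Over the whole array 0.134% of the tested probe sets were called lower with JH III (14 of 10475), and 0.162% were called in either direction. The lower calls depend on the processing and on single arrays: there were 0 after quantile normalization, median centring, another filter or the replicate block, without a trend in the variance, by the methods' t-test (the one the labels name) and without acetone replicate 1, 1 without JH III replicate 1, and 29 without acetone replicate 2. Of the 2 member probe sets 0 were called by limma, and 1 of them, Jheh2, had an unadjusted p under 0.05. An unadjusted p under 0.05 with a lower level in JH III was found for 3.75% of all tested probe sets. Both JH III arrays lay below both acetone arrays in 15.3% of them, and the mean signal was at least 2-fold lower in 7.93%, the size of change that the labels give as the study's criterion. The difference of Jheh2 was exceeded in the lower direction by 5.07% of tested probe sets, and 153 had a smaller p.

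Jheh2 is among the bright probe sets, with 5.67% of those tested above it in mean signal, and of the brightest 25% of tested probe sets 62.7% lay below 0, against 43.9% of all. In that brightest class the median difference was -0.16, against 0.30, 0.27 and 0.16 in the other classes of 25% from dim to bright. There both JH III arrays lay below both acetone arrays in 27.3% of probe sets, and 10% were lower with an unadjusted limma p under 0.05. Set against the median difference of all tested probe sets, 0.10, the difference of Jheh2 was -1.09. After quantile normalization that median was 0.01 and Jheh2 stood at -0.73 relative to it, and after centring each array on its median these values were -0.15 and -1.14.

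**Figure D2:**
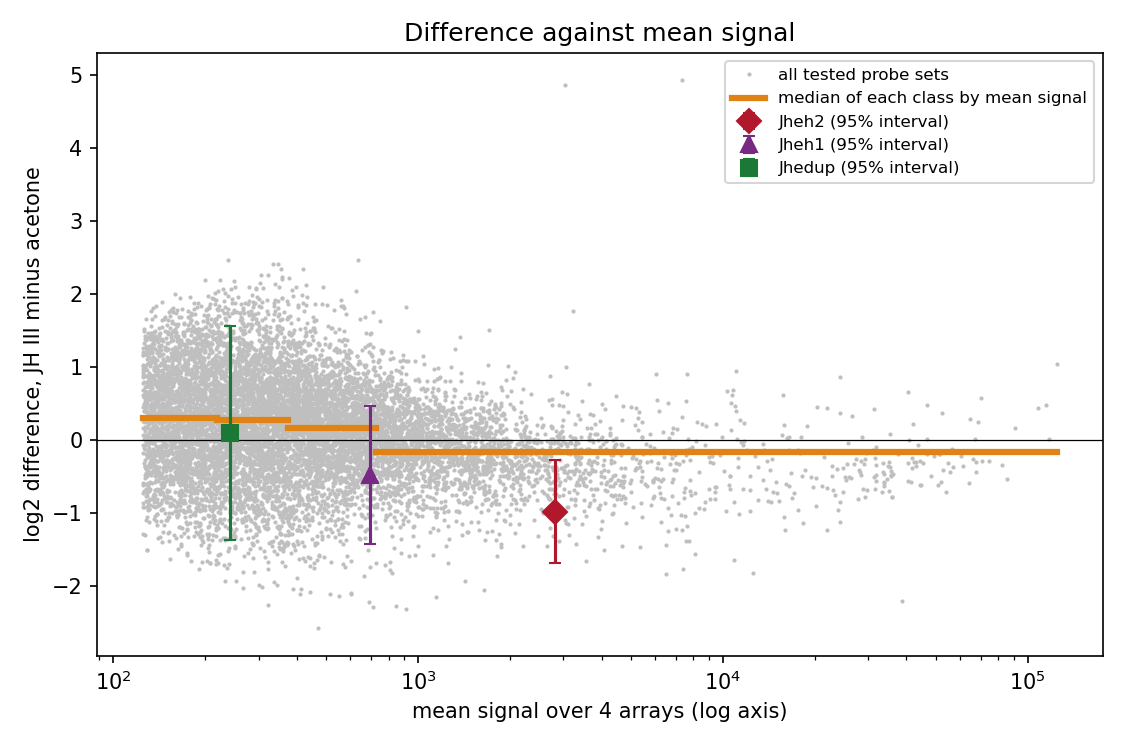
Log2 difference (JH III minus acetone) against mean signal over the 4 arrays, on a log axis. Grey points are all tested probe sets, bars are the median of each class of 25% by mean signal, and error bars are 95% intervals. The median is above 0 in the 3 dimmer classes and at -0.16 in the brightest, where Jheh2 lies at -0.98.

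Jheh2 had its highest signal in acetone replicate 1, then in acetone replicate 2, JH III replicate 2 and JH III replicate 1. For the control gene GAPDH the 3' signal over the 5' signal, a sign of how far the RNA or its copies extend, ran in the same order, at 2.32 and 5.75 after JH III and 15.5 and 10.2 after acetone. So did that of eIF-4a, at 18.3 and 18.9 after JH III and 75.0 and 46.8 after acetone. The same ratio for actin did not, at 3.40 and 16.7 after JH III and 35.6 and 14.2 after acetone, where the groups overlap. A spiked control added to every array, CreX, ran in the opposite order, at 470523 and 194222 after JH III and 77089 and 190511 after acetone. Of all tested probe sets 5.55% had the array order of Jheh2, and of the brightest 25% it was 14.0%. The part of these measures in the values of Jheh2 was not tested.

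Markers of organs and cell types differed between arrays as well. The summed signal of 9 fat body markers, all 9 of the list, was 15201 and 18254 after JH III and 20625 and 18266 after acetone, which is the array order of Jheh2 only by the narrow gap between JH III replicate 2 and acetone replicate 2. Of these 9, Fbp2 was under background in all 4 arrays and none was at 0. Of the 8 tested, 4 lay below and 4 above 0, with a median difference of -0.05, and limma called 0. The sum of 8 of 10 gut markers was 106766 and 179387 after JH III and 249349 and 153395 after acetone, and that of 8 of 9 muscle markers was 13511 and 22450 after JH III and 33723 and 18640 after acetone. For both the groups overlap, and 8 of 8 gut and 7 of 8 muscle markers lay below 0, with medians of -0.60 and -0.52. The sum of 5 of 6 haemocyte markers was 2701 and 3048 after JH III and 3970 and 5252 after acetone, without overlap and highest in acetone replicate 2, unlike Jheh2. Of these 5, Col4a1 had the highest signal in every array, and Hml was under background in both JH III arrays. NimC1 was under background in all 4 arrays and was not tested, with means of 108 after JH III and 38.7 after acetone. All 4 haemocyte markers that were tested lay below 0, with a median of -0.84. In the other direction, the sum of 7 of 10 ovary markers was 15426 and 23097 after JH III and 12374 and 15514 after acetone, overlapping, with 7 of 7 above 0 and a median of 0.69. The sum of 4 of 5 neuron markers was 1259 and 1096 after JH III and 942 and 722 after acetone, without overlap. Of these 4, brp and para were under background in all 4 arrays, and only elav and nSyb were tested. Limma called 0 of the gut, muscle, haemocyte, ovary and neuron markers. The part of all these markers in the values of Jheh2 was not tested.

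Leaving out single arrays moved Jheh2 without turning its sign. Without JH III replicate 1 the difference was -0.84 (limma unadjusted p = 0.0503, adjusted p = 0.977). Without acetone replicate 1, and so within 1 chip lot, it was -0.74 ± 0.43 SE (limma unadjusted p = 0.0848). The lone remaining array of a group is taken to vary like the pair of the other.

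**Figure D3:**
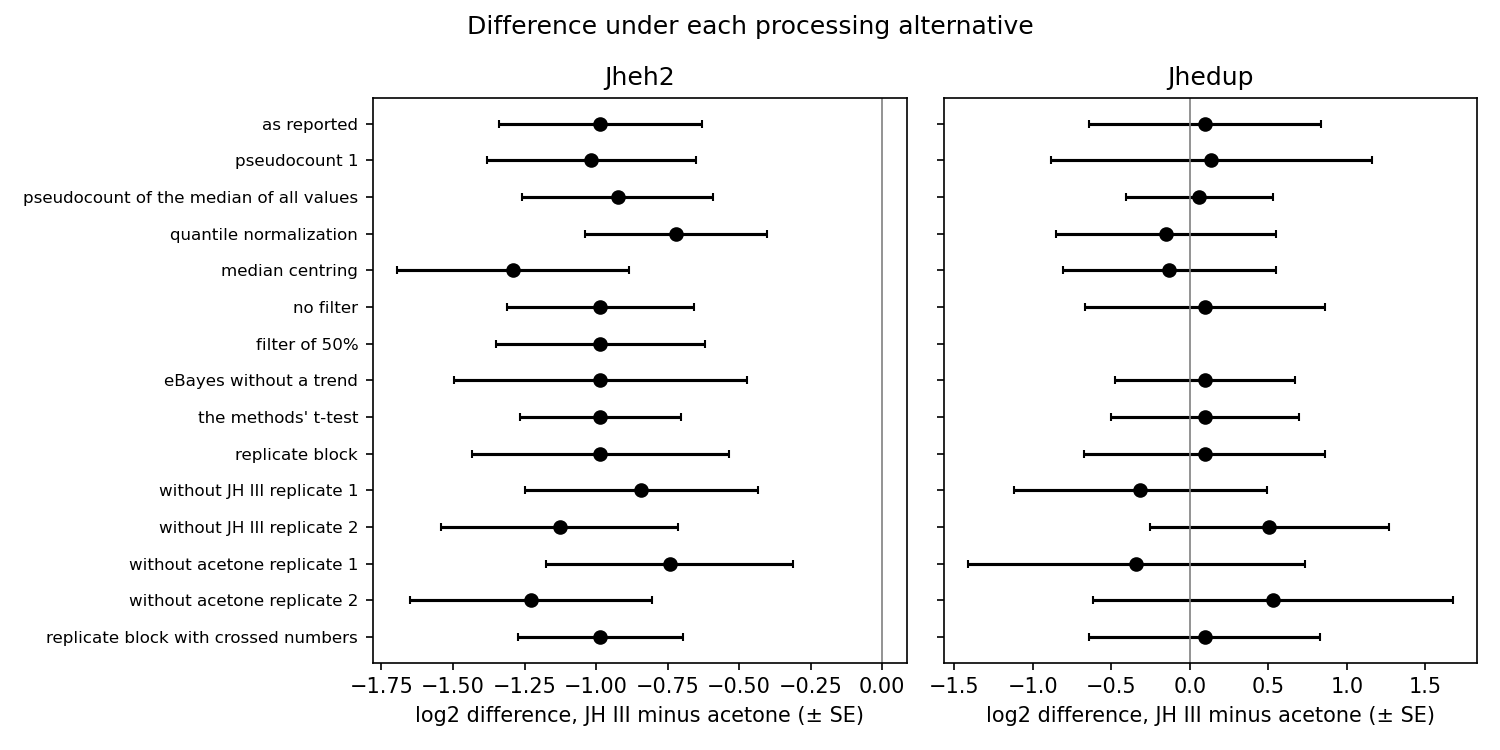
Log2 difference (JH III minus acetone, ± SE) of Jheh2 and Jhedup as reported and under each processing alternative. Jheh2 lies between -1.29 and -0.72 throughout, and Jhedup lies on both sides of 0, between -0.34 and 0.53. Jhedup has no value with the filter of 50%, which leaves it out.

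Jheh1, the epoxide hydrolase gene beside Jheh2, could be followed only by a probe set that the platform annotation leaves unnamed. The RefSeq gene table lists the identifier of that probe set among the synonyms of Jheh1. It lists 133 such identifiers in all, of which 111 also have 1 platform symbol, and for 111 of these the same gene is named. The probe set was taken up after its values were seen. Its signals were 536 and 594 after JH III and 918 and 730 after acetone, above background in all 4. Both JH III arrays lay below both acetone arrays, as in 15.3% of all tested probe sets. The array order was that of Jheh2, which 5.55% of all tested probe sets had. In the brightness class of Jheh1, the next below the brightest, these shares were 11.7% and 3.51%. The means were 565 ± 41.1 after JH III and 824 ± 133 after acetone (SD, n = 2 each). The log2 difference was -0.48 ± 0.47 (SE), with a 95% interval of -1.43 to 0.47 (limma unadjusted p = 0.317, adjusted p = 0.849). The interval takes in 0 as well as the value of Jheh2.

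The test of whether Jheh2 and Jheh1 differed in response used the log2 level of Jheh2 minus that of Jheh1 within each array. This was 1.49 and 1.65 after JH III and 2.17 and 1.98 after acetone. The difference between the groups was -0.51 ± 0.12 (SE), with an exact two-sided permutation p of 0.333, again the smallest possible, for the 1 pair compared. After quantile normalization it was -0.11. No other pair of members of a family could be set against each other.

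Jhedup, the esterase encoded beside Jhe and known from the antenna of the fly as an enzyme that cleaves odorant esters, was near background. Its signals were 345 and 159 in the JH III arrays, both under the background of their array, and 140 and 324 in the acetone arrays, both above it, the first by less than 1 unit of signal. The groups overlap, and each holds 1 higher and 1 lower array. The means were 252 ± 131 after JH III and 232 ± 131 after acetone (SD, n = 2 each). The log2 difference was 0.10 ± 0.74 (SE), with a 95% interval of -1.38 to 1.57 (limma unadjusted p = 0.898, adjusted p = 0.985). The values are compatible with any difference within that interval, and a difference beyond it could still miss the adjusted threshold. An exact two-sided permutation test gave p = 0.667. The sign of the difference turned after quantile normalization (-0.15) and after median centring (-0.13). It turned also without JH III replicate 1 (-0.32) or without acetone replicate 1 (-0.34), and it grew to 0.51 without JH III replicate 2 and to 0.53 without acetone replicate 2.

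The genes most like each enzyme in pattern were found by the distance between 4 log2 levels, each set of levels centred on its own mean. With 4 arrays this is a description only. For Jheh2 they were GstD1, a glutathione S-transferase of detoxification (distance 0.12, log2 difference -0.97), CG18343 (0.12, -1.02) and COX5B, a subunit of cytochrome c oxidase (0.12, -1.06). GstD1 had signals of 7784 and 8710 after JH III and 18459 and 14217 after acetone, in the array order of Jheh2. Limma called none of these 3, with unadjusted p of 0.0128, 0.0218 and 0.00959 and adjusted p of 0.530, 0.618 and 0.501. For Jheh1 the nearest were Alas, the first enzyme of haem synthesis, with nAChRbeta3, an acetylcholine receptor subunit, and Scamp, a membrane protein of secretory vesicles, all at a distance of 0.06. For Jhedup they were Liprin-alpha, a scaffold protein of synapses (0.03), Hph, the prolyl hydroxylase that senses oxygen (0.06), and the adaptor subunit gene g, or garnet (0.06). These 3 also had 1 higher and 1 lower array in each group.

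The genes beside the enzymes on chromosome arm 2R were named in the order given by RefSeq (Release 6 plus ISO1 MT), and no coordinates are given, since the sources used here name no build for the array. Of the 12 protein-coding genes nearest to the enzymes, 3 on each side of each row, 7 had a named probe set, and 7 probe sets of these were tested. Limma called 0 of the 7, 3 lay below 0 and 1 had an unadjusted p under 0.05. Beside Jheh1 lay CG18190, with 442 and 290 after JH III and 261 and 116 after acetone (log2 difference 0.76 ± 0.71 SE), opposite in sign to Jheh1 and Jheh2. Beside Jhedup lay Asph, whose probe sets disagreed. One had 516 and 734 after JH III and 1083 and 1382 after acetone (-0.90 ± 0.44 SE, limma unadjusted p = 0.0436), and the other, under background in all 4 arrays, was at 1.16 ± 0.85 SE. On the far side of Jheh3 the nearest gene with a named probe set was DptB, the fifth gene on, which encodes a diptericin, a peptide against bacteria. It was called lower, with 5058 and 5818 after JH III and 22676 and 16642 after acetone (-1.82 ± 0.37 SE, limma adjusted p = 0.0136). The call held in 4 of 14 alternatives. These were the pseudocounts 1 and 256 (limma adjusted p = 0.0167 and 0.0171), the fit without acetone replicate 2 and the replicate block with crossed numbers. That crossed block, added after seeing the data, gave the lowest limma adjusted p, 9.28e-08. The call was lost, among others, without JH III replicate 1, without JH III replicate 2 and without acetone replicate 1. Across the 14 alternatives the difference stayed between -2.14 and -1.38. DptB lies outside the rule for neighbours and was chosen after its values were seen.

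**Figure D4:**
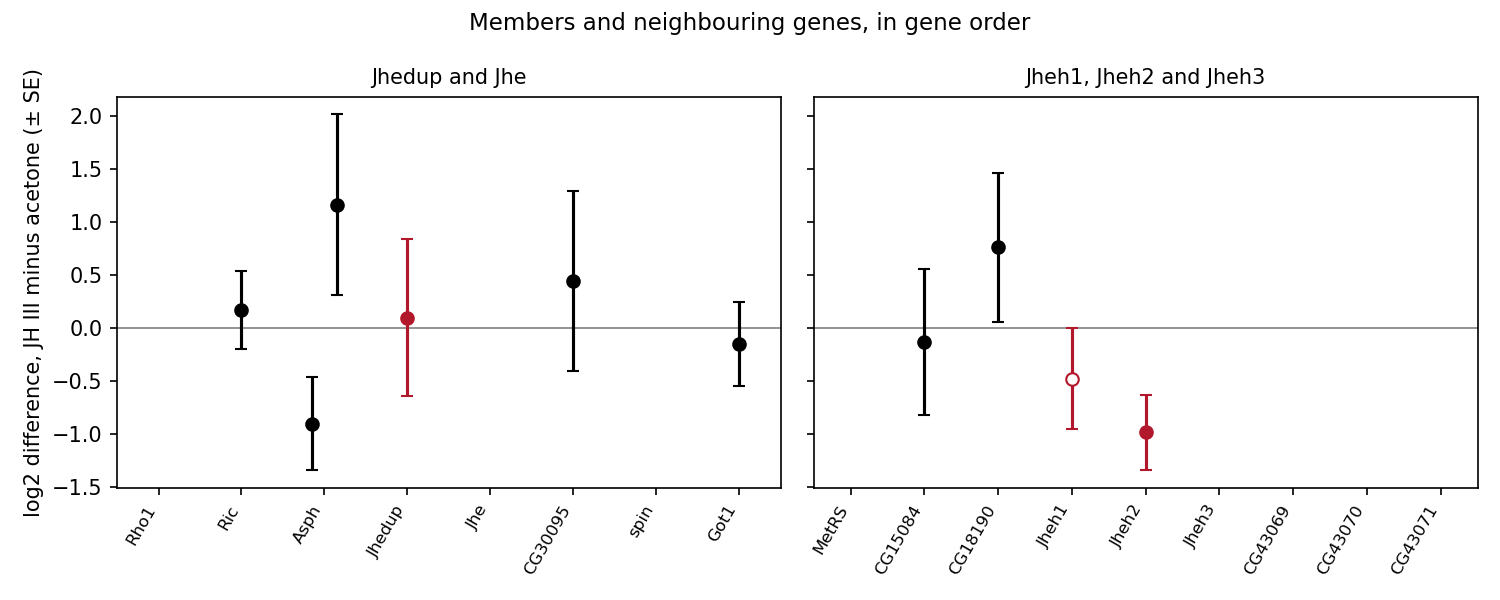
Log2 difference (JH III minus acetone, ± SE) of the enzyme genes (red) and of their 3 nearest protein-coding genes on each side (black), in gene order along the chromosome arm. The open point is Jheh1, named by its RefSeq synonym, and genes with no point had no named probe set above the filter. Jheh2 at -0.98 and Jheh1 at -0.48 are below 0, and CG18190 beside them is at 0.76.

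Carboxylesterases, the protein family of Jhe and Jhedup, showed no common direction. Of the 20 genes listed 17 had a named probe set and 14 were tested. Limma called 0 of these, with 6 below and 8 above 0, where 43.9% of all tested probe sets lay below 0, and their median difference was 0.07, against 0.10 for all tested probe sets. At an unadjusted limma p under 0.05 were alpha-Est3 (-0.99 ± 0.43 SE), the basement membrane protein gene Glt (-1.13 ± 0.53 SE) and, in the other direction, clt (1.64 ± 0.71 SE). So were 764 of all 10475 tested probe sets. With 1 array left out alpha-Est3 ran from -1.49 to -0.48, Glt from -1.50 to -0.76 and clt from 0.93 to 2.36. In acetone clt had signals of 241 and 36.9, the second under background. In alpha-Est3, a gene of the alpha-esterase cluster, signals were 539 and 1009 after JH III and 1065 and 2238 after acetone. Its arrays did not follow the order of Jheh2, since acetone replicate 2 was the highest. The next by p was alpha-Est2 (1.14 ± 0.68 SE).

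The lists for the mevalonate pathway and hormone synthesis and for hormone receptors and response gave 0 calls by limma, with 9 and 8 genes tested. The median difference was -0.07 for the 9 genes listed for the mevalonate pathway and hormone synthesis. It was 0.51 for the 8 receptors and response genes, of which 7 lay above 0. Over all tested probe sets the median was 0.10, and 43.9% lay below 0. Among the 8, only Fkbp39 and JhI-21 were above background in all 4 arrays, with JhI-21 at 0.016. The others lay in the dimmest class by mean signal or the next, where the medians over tested probe sets were 0.30 and 0.27. Among the 9 genes listed for the mevalonate pathway and hormone synthesis Aldh-III, an aldehyde dehydrogenase, had the smallest p. It was the 1 gene there with an unadjusted limma p under 0.05. Its signals were 296 and 830 after JH III and 1282 and 1168 after acetone (-1.15 ± 0.46 SE, limma adjusted p = 0.563). The 296, in JH III replicate 1, was under the background of that array. Without JH III replicate 1 the difference was -0.52, and without JH III replicate 2 it was -1.79. The mevalonate pathway enzyme Pmvk had 56.7 and 54.2 after JH III, under background, and 163 and 311 after acetone (-1.17 ± 0.86 SE). In jhamt (1.48) and Cyp6g2 (0.97) JH III replicate 1 was above background and the other 3 arrays were not. Without that array the differences were 0.11 for jhamt and 0.051 for Cyp6g2. Of the response genes, JhI-26 was at 0.84, Kr-h1 at 0.94, Fkbp39 at 0.38 and tai at 0.55, and none had an unadjusted p under 0.05. Kr-h1 was above background in 1 JH III array and 0 acetone arrays, and stood at 0.089 without acetone replicate 1. JhI-26 stood at 0.018 without acetone replicate 2. The lipoprotein genes apolpp and Apoltp, whose products carry lipids in the blood, were at 0.24 ± 0.35 SE and -0.19 ± 0.36 SE, and both turned sign without acetone replicate 1.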

How the data were processed

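The deposited table holds 1 linear intensity per probe set and array. With 2% trimmed from each end, every array averages 500.1, so the authors had scaled the arrays to a common mean. The sources used here do not name the software that summarised the probes. Per the labels, Trizol and chloroform were used for extraction and biotin for the label. Of 14010 probe sets, 44 were controls. Of the rest 12442 had 1 platform symbol, 327 several and 1197 none, and 12393 matched RefSeq by Entrez number.

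Values were tested as log2(signal + 83), 83 being the 25th percentile of all values, which understates changes of dim probe sets. The dimmest 25% were left out, leaving 10475. Limma 3.58.1 in R 4.3.3 (lmFit, eBayes with a trend, two-sided) gave JH III minus acetone, adjusted by Benjamini-Hochberg over all tested, with 2 residual and 66.9 moderated degrees of freedom, so that most of the spread was borrowed from other probe sets. Replicates are separate pools of females. The fit was tested on simulated arrays. Lists were described by counts, with the brightest probe set per gene. Named genes were the members, up to 4 genes of smallest p in each list, the 3 genes nearest in pattern and 3 chromosomal neighbours on each side. Members and lists were chosen with earlier results of these data known. Alternatives were other pseudocounts, normalizations, filters and variance settings, the t-test named in the labels (called the methods' t-test), replicate blocks, gene means and each array left out. Tables and plots were made in Python 3.11.15 (scipy 1.17.1, pandas 2.3.3, matplotlib 3.10.9 and numpy 2.4.6).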

Additional observations from a re-analysis of the deposited data

How the results depend on the processing

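Jheh2 stayed below 0 in all 14 alternatives run for it (-1.29 to -0.72; -1.23 to -0.74 with 1 array left out) and passed the adjusted threshold in 0 (limma or t-test adjusted p 0.0592 to 1.00). Its unadjusted p was under 0.05 in 10 of 14, and above it without a trend in eBayes (0.0889), by the methods' t-test (0.0727), without JH III replicate 1 and without acetone replicate 1. Jheh1 stayed below 0 in 14 of 14 (-0.76 to -0.33). Jhedup turned sign after quantile normalization (-0.15) and median centring (-0.13), and ran from -0.34 to 0.53 with 1 array left out. It lay under the filter of 50%. The difference between Jheh2 and Jheh1 ran from -0.60 to -0.11, and from -0.60 to -0.41 with 1 array left out. Members and the 3 gene lists kept 0 calls in all 15 alternatives, averaging over the probe sets of each gene included.

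Of the 14 other genes named from the lists, 0 were called in any alternative and 2 turned sign: apolpp was at -0.072 after median centring and ran from -0.044 to 0.52 with 1 array left out, and Apoltp was at 0.076 after quantile normalization and ran from -0.40 to 0.018 with 1 array left out. The alternatives for these genes and for DptB were added after seeing the data.

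Over the whole array the 17 calls became 10 with the pseudocount 256, 2 each with quantile normalization, median centring, no filter, the filter of 50% and the replicate block (all higher with JH III), and 0 without a trend or by the methods' t-test (697 and 607 at an unadjusted p under 0.05). With 1 array left out there were 3 to 36 calls, 3 without JH III replicate 1, 3 without acetone replicate 1 and 36 without acetone replicate 2. The cause was not tested. Replicate numbers are shared between groups without a stated pairing; same-numbered arrays deviated with r = -0.11, and with the replicate block Jheh2 was at -0.98 with an unadjusted p of 0.0287 (limma adjusted p = 0.922). With crossed numbers, an alternative added after seeing the data, 109 probe sets were called. The alternatives planned for Jhe and Jheh3, and for pairs with them, could not be run, because no probe set named these genes alone. With 2 arrays a group, and Jhedup near background, changes of 2-fold could be missed.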
